A study of Mus musculus with 3 samples.

Results

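The endoplasmic reticulum folding, secretion and stress genes are 44 genes listed by function: chaperones, disulfide isomerases, translocon subunits, the COPII coat, the degradation machinery, and the sensors, transcription factors and outputs of the unfolded protein response. They were found by symbol in the count table, where 44 of 44 were present among 27179 genes. The table has 3 columns, 1 for each library of a single group: stem and progenitor cells of epididymal fat (ASPC) from naive wild-type C57B6 male mice aged 12 weeks. The stromal vascular fraction was freed with Collagenase II and sorted for live cells without CD45, CD31 and Ter119 that carried CD140a, Sca1 and PDPN. Fat was taken from 3 mice. No label ties a library to a single mouse, so the p-values and SDs given here measure only how these 3 libraries differ, which may be partly technical. No second condition was measured, and the comparisons are between genes within a library and between the 3 libraries.

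Secreted and membrane proteins enter the endoplasmic reticulum through the Sec61 channel, fold with the help of chaperones and disulfide isomerases, and leave in COPII vesicles. Proteins that fail to fold are drawn back to the cytosol and degraded. When unfolded protein accumulates, the sensors IRE1 (Ern1), PERK (Eif2ak3) and ATF6 raise chaperone and degradation genes and restrain translation. Stromal cells of fat make large amounts of collagen, whose long precursors need the dedicated chaperone encoded by Serpinh1 and the cargo receptor encoded by Mia3. Splicing of Xbp1 mRNA, translation of Atf4 mRNA and cleavage of ATF6 are the steps that carry the signal, and gene counts measure none of them.

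The libraries held between 25060096 and 32813373 counts. The sorted surface genes were present (Pdgfra at 1484 ± 14.5 CPM, SD, n = 3, Ly6a at 3254 ± 441 and Pdpn at 119 ± 31.9), where CPM are counts scaled to a common library size by TMM. Markers of other cells were low: the summed level was 6.52 to 17.5 CPM for 7 leukocyte genes, 0.0945 to 0.198 for 5 endothelial genes and 0.555 to 2.36 for 7 plasma cell genes. The sum was 4.44 to 6.90 CPM for 5 mural genes, 0.119 to 0.441 for 4 mesothelial genes and 0 to 2.17 for 4 erythroid genes. In the list of 5 mature adipocyte genes, which summed to 19.9 to 98.7 CPM, Adipoq and Cidec were at 0 counts, and Fabp4, which progenitors also express, stood at 63.5 ± 40.7 CPM. The 10 immediate-early genes summed to between 13153 and 15069 CPM in these digested and sorted cells. Levels before digestion were not measured.

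Most of the machinery was present at high levels, led by Hspa5, the chaperone BiP. At 1 CPM or more in every library, 40 of 44 genes (90.9%) were detected, against 35.0% of all genes and 43.7% of protein-coding genes. Of the 40, 24 had a mean of 100 CPM or more, 13 lay between 10 and 100 CPM and 3 (Hyou1, P4hb and Creb3l2) were below 10. The genes not detected were Derl3, Ern1, Trib3 and Chac1. Nearest the threshold, Hyou1 had 1.86 CPM in its lowest library and Trib3 had 0.882. Together the 44 genes made up 10418 ± 211 CPM, or 1.04% of the counts, and Hspa5, Hsp90b1 and Canx held 44.8% of that sum. CPM compare 1 gene between libraries, and different genes are ranked by CPM per kilobase of exon, or of the principal transcript where stated. On that scale 16 of the 40 detected genes stood at or above the 90th percentile of detected genes and 5 below their median. By the length of the principal transcript alone these counts were 13 and 8. The median was 31.6 CPM per kilobase for the 40 genes and 6.55 for all detected genes.

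**Figure D1:**
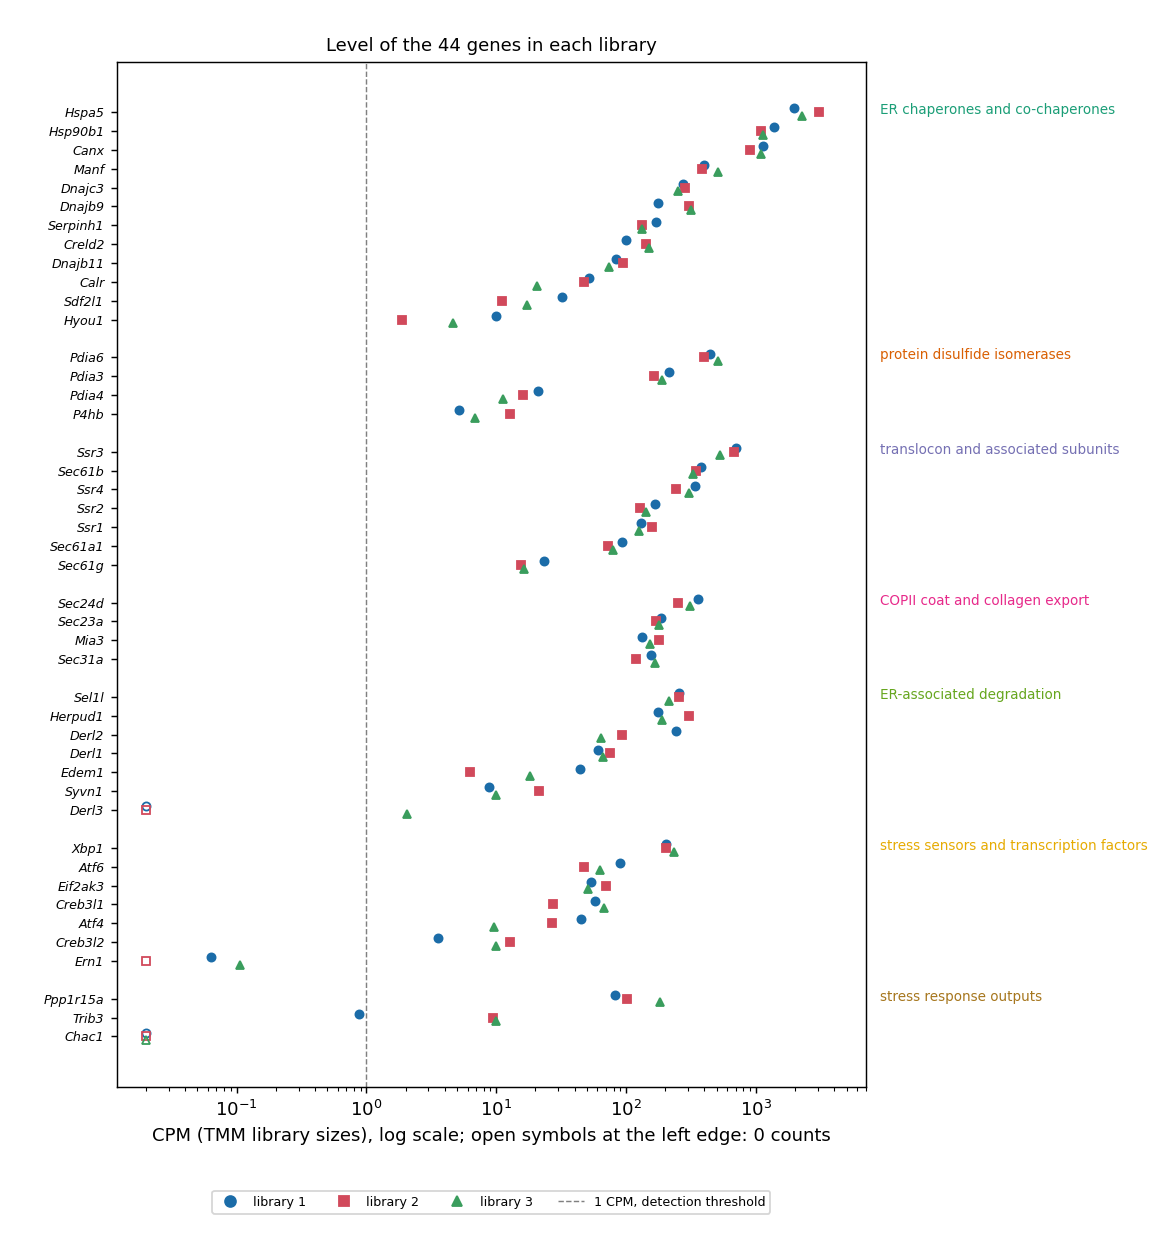
Level of each of the 44 genes in the 3 libraries, in CPM on a log axis, grouped by role and ordered by mean, with open symbols for 0 counts and a dashed line at 1 CPM. CPM are not corrected for gene length. In each row the symbols show the spread between libraries, 40 genes lie right of the line in every library, and Chac1 has 0 counts in all 3.

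The promoters of several of these genes carry a shared element. The endoplasmic reticulum stress element, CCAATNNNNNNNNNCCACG, is bound by ATF6 together with the CCAAT-binding factor NF-Y. Promoters from RefSeq (GRCm38.p6), 250 bases before to 50 after an annotated start of the gene, were searched on both strands for exact letters. Of the 44 genes 37 had one. The element was present in 9 of these 37 genes and in 37 of 27025 genes in the table (0.137%). The genes were listed for their roles in this response, so this count describes the list. The 9 were Hspa5, Hsp90b1, Calr, Canx, Dnajc3, Creld2, Pdia6, Syvn1 and Derl3. The related element ATTGGNCCACG was in Herpud1 and Dnajb11 and in 12 genes of the table (0.0444%). The XBP1-type element TGACGTGG was in Sec23a and Sec24d, against 193 genes (0.714%), and the ATF4-type element TGATGCAA in Chac1 and Herpud1, against 279 genes (1.03%). The matches in Dnajb11 and Sec23a ended after the start. The Sec24d window, chr3:123267246-123267545, lies inside the gene as listed, which begins at 123264801. That window therefore surrounds a later start. Among these genes no match overlapped another. A match is a run of letters and not a measured binding site.

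The sequences below show the same element before genes whose levels lay far apart, from Hspa5 at 573 CPM per kilobase to Derl3 at 0.340. They read 5′ to 3′ on the strand of the gene and end before the annotated start. Capitals mark the element, and in Calr, Creld2 and Derl3 it lies on the opposite strand and so begins with CGTGG. In Hspa5 its last base lies 47 bases before the start. The windows are chr2:34771940-34772089 (Hspa5, plus strand), chr11:50325785-50325833 (Canx, minus), chr12:17266476-17266524 (Pdia6, plus), chr15:88819505-88819553 (Creld2, plus), chr8:84847060-84847108 (Calr, minus), chr19:6046517-6046565 (Syvn1, plus) and chr10:75893227-75893275 (Derl3, plus).
Hspa5: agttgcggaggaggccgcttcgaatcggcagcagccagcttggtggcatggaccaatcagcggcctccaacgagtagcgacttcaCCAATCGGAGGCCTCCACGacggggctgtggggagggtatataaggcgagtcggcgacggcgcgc
Canx: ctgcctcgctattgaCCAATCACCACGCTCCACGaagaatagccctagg
Pdia6: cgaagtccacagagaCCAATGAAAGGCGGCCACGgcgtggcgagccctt
Creld2: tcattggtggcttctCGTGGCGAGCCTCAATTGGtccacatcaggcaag
Calr: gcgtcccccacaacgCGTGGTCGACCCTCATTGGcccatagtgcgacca
Syvn1: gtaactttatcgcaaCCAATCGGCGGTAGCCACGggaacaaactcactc
Derl3: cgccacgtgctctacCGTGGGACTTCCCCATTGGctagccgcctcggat

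The 9 genes with the element had a median of 95.6 CPM per kilobase and ranged from 0.340 to 573, and 8 of them were detected. The 28 genes without it in this window had a median of 22.3 and ranged from 0 to 274, and 25 were detected. The ranges of the 2 sets overlapped. The sets also differed in role. Hspa5, Hsp90b1, Calr, Canx, Dnajc3 and Creld2 of the 9 are chaperones, a role with a median of 77.4 CPM per kilobase. The 28 include Herpud1 and Dnajb11, which hold the related element. The part of role in these medians was not tested. The median SD of log2(CPM + 0.5) over the libraries was 0.25 in the detected genes of both sets.

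All 12 chaperones and co-chaperones were detected, with a median of 77.4 CPM per kilobase. Hspa5 (gene 14828, chromosome 2, 34772090 to 34776529, GRCm38), which binds unfolded chains and holds the stress sensors inactive, had 1958, 3045 and 2269 CPM in libraries 1, 2 and 3. It was highest in library 2, at 1.56 times library 1. Hsp90b1, the HSP90 of the endoplasmic reticulum (GRP94), had 1370, 1094 and 1140 CPM, and the lectin chaperone Canx 1138, 894.7 and 1092. Both were lowest in library 2, where Hspa5 was highest. Per kilobase, Hspa5 was above Hsp90b1 by 0.93 ± 0.48 (log2 scale) and so in each library. Library 2 gave a difference of 1.41 and library 1 of 0.45, and by principal transcript length the mean difference was 0.62.

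Calreticulin (Calr), the soluble counterpart of calnexin, stood far below Canx. Its values were 51.6, 47.6 and 20.5 CPM, lowest in library 3. Per kilobase Calr differed from Canx by -4.05 ± 0.78 on the log2 scale, lower in 3 of 3 libraries. Canx was thus 16.6-fold above Calr per kilobase of exon, while the highest and lowest library differed 2.52-fold for Calr and 1.27-fold for Canx. By principal transcript length the log2 difference was -3.80. How reads were counted is not known, and its part in the low Calr count was not tested.

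Among the helpers of Hspa5, levels spanned more than the libraries did. Manf, a secreted stress-induced partner of BiP, stood at 122 CPM per kilobase, the J-domain co-chaperone Dnajb9 at 103.7 and Dnajc3 at 52.5. Creld2, a stress-induced folding factor, stood at 95.6, Dnajb11 at 26 and Sdf2l1 at 18.1. Serpinh1, the collagen chaperone HSP47, was at 59.3 CPM per kilobase. Hyou1, a nucleotide exchange factor for BiP, was lowest at 0.757 CPM per kilobase, in the 3.19th percentile of detected genes. Its CPM values were 9.92, 1.86 and 4.64, and the mean of 5.48 fell to 3.25 without library 1.

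Of the 4 disulfide isomerases, Pdia6 and Pdia3 stood at 119.95 and 60.1 CPM per kilobase, and Pdia4 and P4hb at 6.72 and 2.88. Pdia6 had 445, 397 and 505 CPM, and Pdia3, which works with calnexin and calreticulin on glycoproteins, 214, 163 and 188. Pdia4 had 21, 16.1 and 11.3 CPM. P4hb (gene 18453, chromosome 11, 120560298 to 120573253), the classical protein disulfide isomerase and a subunit of the enzyme that hydroxylates collagen, had only 5.2, 12.7 and 6.86 CPM. Per kilobase P4hb differed from Pdia6 by -5.22 ± 0.69 on the log2 scale, and it stood in the 25.6th percentile of detected genes. The GC content of the principal transcript was 53.8% for P4hb and Hyou1, 48.9% for Pdia6 and 50.3% at the median of the detected members. Pdia4, also low, had 47.6%, and Creld2, at 95.6 CPM per kilobase, had 54.8%. Over the 40 detected genes GC content and level per kilobase had a Spearman's rho of -0.20, and over 9197 detected genes -0.14, as a description of values that share the same libraries. The part of GC content in these levels was not tested.

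**Figure D2:**
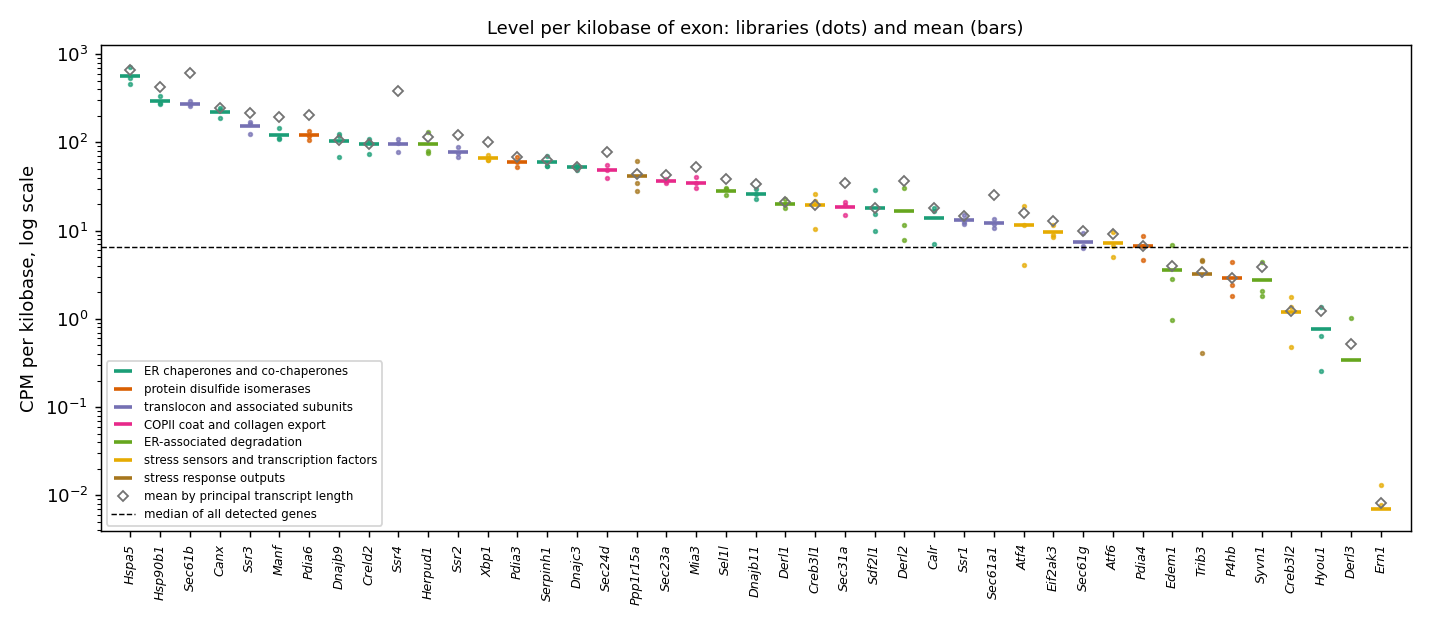
Level per kilobase of exon on a log axis for the 43 genes with counts, ordered by mean, with dots for libraries, coloured bars for means, diamonds for means by principal transcript length and a dashed line at the median of all detected genes. Hspa5 stands first at 573 and Ern1 last, and the diamonds lie well above the bars for Ssr4 and Sec61b.

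Subunits of one translocation complex differed widely in level. All 7 translocon genes were detected, with a median of 77.7 CPM per kilobase. The Sec61 channel has 3 subunits. Sec61b had 374, 344 and 328 CPM, and Sec61a1, which forms the pore, had 92.1, 72.7 and 79. Per kilobase Sec61b exceeded Sec61a1 by 4.45 ± 0.11 on the log2 scale, the smallest SD of the 12 pairs compared. Sec61g had 23.4, 15.5 and 16.4 CPM, and the ratio of Sec61b to Sec61g per kilobase lay between 31 and 42.9 over the libraries, or 52.8 and 73.1 by principal transcript length. Sec61g is uncertain, since 10 processed pseudogenes match its coding sequence and reads shared with them may not have been counted. For Sec61b 2 such copies were found and for Sec61a1 none.

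The translocon-associated protein complex (TRAP), which helps some chains enter the channel, has the 4 subunits Ssr1 to Ssr4. Ssr3 had 704, 672 and 524 CPM, and Ssr4 339, 241 and 307. Per kilobase of exon Ssr3 stood highest at 152 and Ssr1 lowest at 13.2, a ratio of 10.5 to 13.6 over the libraries. By principal transcript length Ssr4 stood highest at 387 and Ssr1 again lowest at 14.7. Ssr1 has the longest exon set of the members (10431 bases). The order of the subunits within Sec61 and within TRAP was the same in all 3 libraries on either length.

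All 4 genes of vesicle export were detected, and the widest range between libraries among these 4 was 1.42-fold, in Sec24d. Sec23a, the inner coat subunit that activates the SAR1 GTPase, had 186, 169 and 178 CPM, a range of 1.10-fold and the narrowest of the 40 detected genes. Its inner coat partner Sec24d, which selects cargo and is known from skeletal collagen secretion, had 355, 249.5 and 309 CPM. Mia3 (TANGO1), which loads collagen into vesicles, had 133, 180 and 152, and the outer coat subunit Sec31a 154, 120 and 167. Both inner coat genes stood above a paralog fixed for comparison. Sec23a exceeded Sec23b (70.6, 88.9 and 67.9 CPM) by 1.58 ± 0.26 per kilobase on the log2 scale, and Sec24d exceeded Sec24c (36.6, 76.4 and 58.9 CPM) by 2.38 ± 0.75, each in 3 of 3 libraries. By principal transcript length the first difference shrank to 0.66, and the second was 2.60. Mia2, a Mia3 relative chosen after its values were seen, had 2 counts in library 1 and 0 in the others.

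In the degradation group 6 of 7 genes were detected, with a median of 18.4 CPM per kilobase over those 6. Herpud1, a stress-induced scaffold of the ubiquitin ligase, had 177, 303 and 188 CPM, highest in library 2 as Hspa5 was. Its promoter holds an ATTGGNCCACG and a TGATGCAA match. Sel1l, the adaptor of the ligase Syvn1 (HRD1), had 257, 254 and 215 CPM, and Syvn1 had 8.79, 21.3 and 9.93. Per kilobase Sel1l stood at 28.3 and Syvn1 at 2.75. Edem1, a lectin that delivers glycoproteins for degradation, had 44.4, 6.3 and 18.1 CPM. That 7.04-fold range was the widest of the detected members, and the mean of Edem1 fell from 22.9 to 12.2 without library 1.

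The derlins, membrane proteins of the degradation channel, differed in steadiness. Derl1 had 60.4, 75.3 and 65.8 CPM. Derl2 (gene 116891, chromosome 11, 71007440 to 71019841) had 244, 92.1 and 63.5, so that library 1 stood apart, and the mean of 133 CPM fell to 77.8 without it. Which of the pair was higher depended on the library and on the length used. Per kilobase of exon the difference Derl1 minus Derl2 was 0.50 ± 1.07 on the log2 scale, with -0.72 in library 1, 0.95 in library 2 and 1.27 in library 3. It was 1.11 without library 1, 0.27 without library 2 and 0.11 without library 3, and -0.54 by principal transcript length. Derl3, typical of secretory cells such as plasma cells, had 0, 0 and 57 counts. Of 7 plasma cell genes 3 were highest in library 3. Ighm (12, 0 and 57 counts), Jchain (0, 0 and 2) and Prdm1 (0, 0 and 1) were those 3. Sdc1 (9, 11 and 4), Igkc (3, 1 and 2), Mzb1 (0, 1 and 0) and Tnfrsf17 (0, 1 and 0) were not. The part of such cells in the Derl3 count was not tested.

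Of the 3 stress sensors, 2 were detected. Eif2ak3 (PERK) had 53.4, 70.1 and 51.2 CPM and Atf6 had 89.2, 46.9 and 62.4. Ern1 (IRE1, gene 78943, chromosome 11, 106397620 to 106487796) had 2, 0 and 3 counts. A count of 0 allows up to 3 counts, which equal 0.0945 to 0.119 CPM in these libraries. Its paralog Ern2 had 2 counts in all, in library 2 (a gene from a list fixed for the pathway, named after its values were seen). Per kilobase Ern1 differed from Eif2ak3 by -4.31 ± 0.25 and Atf6 exceeded Ern1 by 3.88 ± 0.42 (log2 scale), each with 1 sign in the 3 libraries. Both sizes are largely set by the pseudocount, since a pseudocount of 0.1 gave -6.50 and 6.04. At this level no change of Ern1 between libraries could be seen. Without library 3 its mean of 0.0567 CPM was 0.0315.

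Xbp1, whose mRNA is the substrate of IRE1, was nonetheless abundant and steady. It had 203, 203.5 and 234 CPM, a 1.15-fold range, and stood in the 91.8th percentile of detected genes per kilobase. Spliced and unspliced forms are summed in this count. Atf4, the factor translated when PERK is active, had 44.6, 27.1 and 9.68 CPM, a 4.61-fold range. Per kilobase Atf4 differed from Xbp1 by -2.69 ± 1.17 on the log2 scale, lower in 3 of 3 libraries. Creb3l1 (OASIS), a membrane-bound factor known for collagen gene expression in bone, had 57.1, 27.4 and 67.7 CPM. Its paralog Creb3l2 (BBF2H7), known for Sec23a expression in cartilage, had 3.53, 12.8 and 10. Creb3l1 exceeded Creb3l2 by 3.54 ± 1.14 per kilobase on the log2 scale, with the smallest gap (2.29) in library 2, where Creb3l1 was lowest and Creb3l2 highest.

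Of the 3 output genes of the PERK and ATF4 branch 1 was detected. Per kilobase Ppp1r15a stood at 41.7, Trib3 at 3.20 and Chac1 at 0. Ppp1r15a (GADD34), which reverses the block on translation and is also induced by other stresses, had 82.7, 102 and 182 CPM, highest in library 3. Atf4 was lowest in that library. Ppp1r15a exceeded its constitutive paralog Ppp1r15b (35.1, 57.4 and 25.8 CPM) by 2.47 ± 1.01 per kilobase on the log2 scale, with the same sign in each library. Trib3, a pseudokinase that feeds back on ATF4, had 28, 240 and 280 counts, or 0.882, 9.51 and 10 CPM. Chac1 (gene 69065, chromosome 2, 119351242 to 119354326), a glutathione-degrading enzyme induced through ATF4, had 0 counts in every library. Its promoter holds the ATF4-type element on the opposite strand, shown in capitals within chr2:119351034-119351071 (plus strand) because the gene it precedes gave no reads.
Chac1: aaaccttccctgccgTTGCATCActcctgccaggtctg

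**Figure D3:**
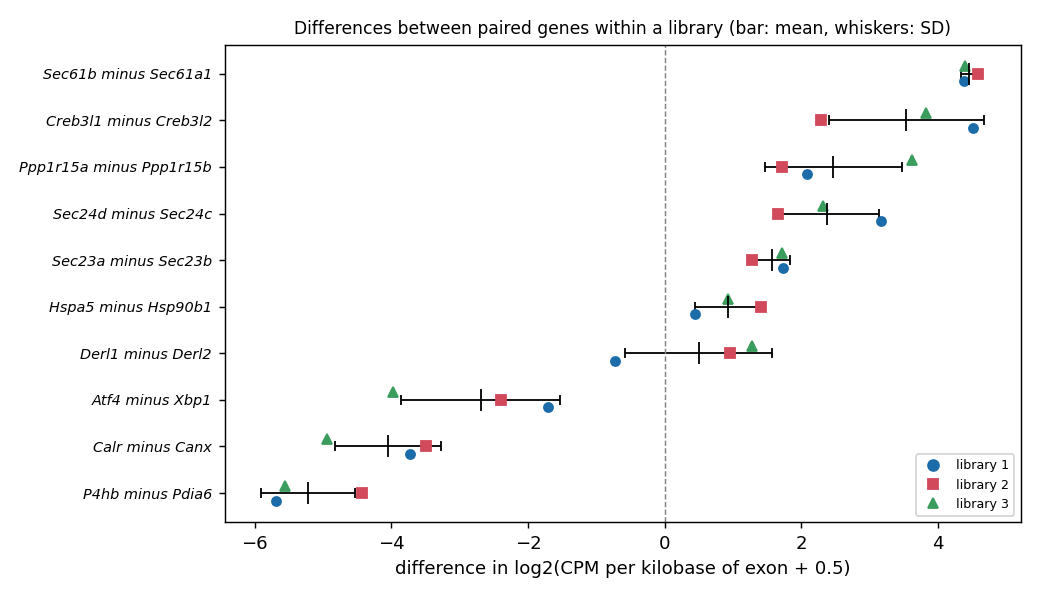
Differences in log2(CPM per kilobase of exon + 0.5) between 2 genes of the same library for the 10 pairs without Ern1, with symbols for the libraries, a bar for the mean and whiskers for the SD (n = 3). Symbols lie on 1 side of 0 for every pair shown except Derl1 minus Derl2, and those of Sec61b minus Sec61a1 lie closest together.

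Across the 12 pairs, 11 had the same sign in 3 of 3 libraries. The pairs were fixed by role or paralogy with earlier results of these data known, so this count describes the pairs chosen. An exact two-sided sign-flip permutation test over 3 libraries cannot give a p below 0.25, which these 11 reached (adjusted p = 0.27 over 12 pairs, exact test), and Derl1 minus Derl2 gave p = 0.50 (exact test). None of the pairs could therefore pass 0.05.

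Between libraries the 40 detected genes ranged less than detected genes as a whole, and about as much as genes of their own abundance. The highest library was less than 1.5 times the lowest for 23 of 40 (57.5%), against 27.2% of 9515 detected genes. It was more than 2 times the lowest for 11 of 40 (27.5%), against 46.7%. Spread falls with level, and these genes are abundant. Set beside detected genes of like abundance (10 equal classes by mean level), 17 of 40 had an SD above the median of their class and 23 did not. By role the median SD of log2(CPM + 0.5) was 0.20 for the translocon and 0.23 for COPII and collagen export. It was 0.27 for chaperones, 0.32 for disulfide isomerases, 0.55 for degradation and 0.57 for sensors and transcription factors. These medians are not matched for level. The SD exceeded the class median for 2 of 7 translocon, 1 of 4 export and 6 of 12 chaperone genes. It did so for 0 of 4 isomerase, 3 of 6 degradation and 4 of 6 sensor and factor genes.

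Library 1 held the highest value for 21 of 40 genes (52.5%), against 32.7% of all detected genes. These included 6 of 7 translocon genes, Hsp90b1, Canx, Calr and both inner coat genes. Library 2 was highest for 11 (27.5%, against 33.2% of all detected genes), among them Hspa5, Dnajb11, Dnajc3, Herpud1 and Syvn1. Library 3 was highest for 8 (20.0%, against 34.1%), among them Dnajb9, Creld2, Manf, Pdia6 and Xbp1. Known stress targets, like detected genes as a whole, were not all highest in 1 library. Hspa5 and Herpud1 were highest in library 2, Ppp1r15a and Dnajb9 in library 3, and Sdf2l1 and the low gene Hyou1 in library 1.

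No gene of the 42 fitted was called as varying between libraries by edgeR's goodness-of-fit test (0.564% of 13289 genes were called at an adjusted p below 0.05). The test asks whether a gene varied more than genes of like abundance, so a gene with a wide range need not be called. Edem1, with a 7.04-fold range, had an adjusted p of 0.66 (edgeR). Of the 42, 2 had an unadjusted p below 0.05. They were Derl2 (adjusted p = 0.095, edgeR) and Hspa5 (adjusted p = 0.47, edgeR). With DESeq2's dispersion trend the count of calls was also 0, with 1 unadjusted p below 0.05. Over the alternatives the adjusted p ran from 0.062 to 0.96 for Derl2 and from 0.002 to 0.999 for Hspa5, which was called when genes with as little as 1 count were fitted too. A p above the threshold does not show that these genes were equal in the 3 libraries.

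**Figure D4:**
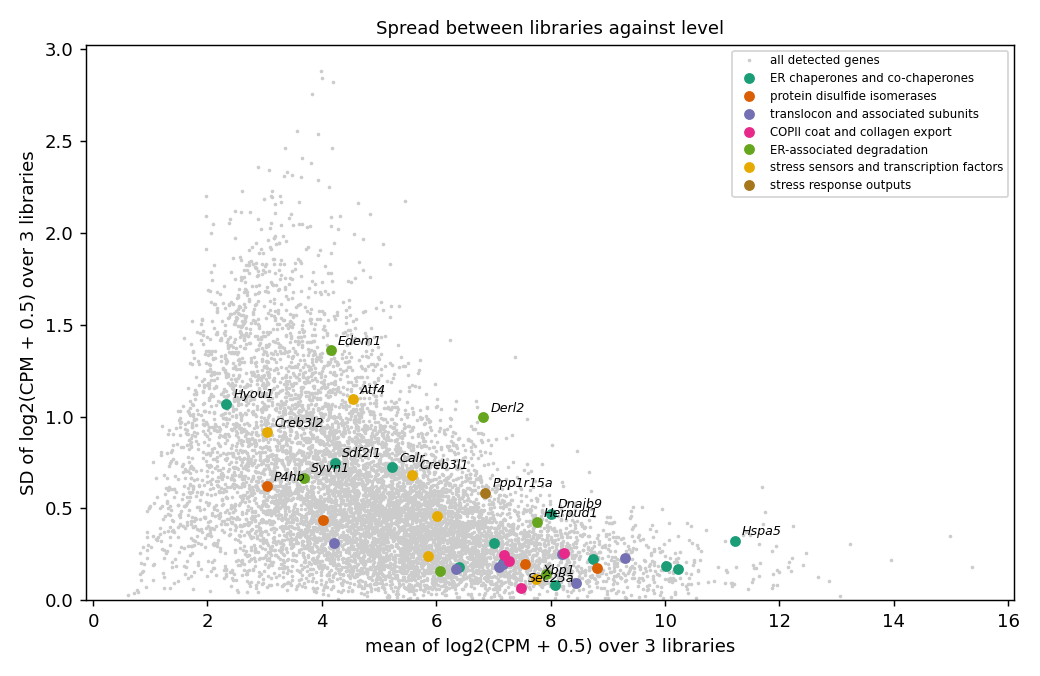
SD over 3 libraries against the mean of log2(CPM + 0.5) for all 9515 detected genes (grey) and the 40 detected members (coloured by role). Edem1 has the largest SD of the members, Derl2 lies above most genes of its level, and Sec23a has the smallest SD.

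Most other genes of the same pathway, in lists not chosen for how they moved, were also detected. All 25 further folding factors passed 1 CPM in every library, with a median of 16.7 CPM per kilobase. They were led by the prolyl isomerase genes Fkbp7 (954, 593 and 532 CPM) and Fkbp2 (321, 219 and 341 CPM). All 23 further genes of targeting, signal cleavage and N-glycosylation were detected, with a median of 27 CPM per kilobase, led by the signal peptidase subunit Spcs1 (1388, 1207 and 1010 CPM) and the signal recognition particle gene Srp14 (510, 550 and 527 CPM). Of 22 further COPII and cargo receptor genes 20 were detected, led by Kdelr2, which returns escaped chaperones (208, 233 and 233 CPM), and the GTPase gene Sar1a (333, 300 and 244 CPM). Sec31b and Mia2 were not detected. All 14 further degradation genes were detected, led by Selenos (37.6, 47.2 and 47.1 CPM) and Erlec1 (140, 110 and 34 CPM).

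Among 23 further stress regulators and targets 17 were detected. Atf3, also an immediate-early gene, led them with 480, 643 and 537.5 CPM, followed by Nupr1 with 358, 191 and 275. Not detected were Bcl2l11, Bbc3, Creb3l4, Creb3l3, Sesn2 and Ern2. Ddit3 (CHOP), a death-linked target of ATF4 named after its values were seen, had 32.1, 63.9 and 9.96 CPM, lowest in library 3 as Atf4 was. Its highest value was in library 2 and that of Atf4 in library 1, while Ppp1r15a and Trib3 were highest in library 3. None of these 107 genes was called as varying between libraries by edgeR's test, where 0.564% of all genes fitted were.

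Of 14 chaperones of the cytosol and mitochondria 14 were detected, with a median of 51.4 CPM per kilobase. Among them 1 was called as varying between libraries, where 0.564% of all genes fitted were, and whether this differs from the endoplasmic reticulum genes was not tested. This was the heat-shock gene Hspa1b, with 2777, 4683 and 2922 CPM (adjusted p = 0.032, edgeR). Over the alternatives its adjusted p ran from 7.6e-24 to 0.999, and the call was lost with DESeq2 size factors (0.0503), with DESeq2's dispersion trend (0.39), with a filter of 1 CPM in every library (0.56) and without library 2 (0.999). Like Hspa5 it was highest in library 2. Its near-identical copy Hspa1a (767, 1469 and 864 CPM) can share its reads. Per kilobase Hspa1b stood at 1235 and Hspa5 at 573.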

How the data were processed

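The authors deposited raw read counts for each NCBI gene ID in 3 libraries. Per the labels' protocols these came from Clontech's SMARTer V4 kit for ultra low input, which amplifies cDNA of few cells. CASAVA 1.8.2, STAR 2.3.0 and the build mm10 are listed in the submitters' processing notes. How reads were counted, on which annotation and whether by strand is not given in the sources used here. Without strand, reads of genes that overlap on opposite strands cannot be told apart. The largest exon overlap of a member with another gene in GENCODE M21 was 12.8% of its bases (Ssr2).

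Symbols came from RefSeq genes of GRCm38.p6 (25275 of 27179 IDs matched). CPM used TMM library sizes (edgeR 4.0.16, R 4.3.3). Exon lengths (all exons of a gene) came from GENCODE M21 for 21567 genes. Log2 values used a pseudocount of 0.5, so differences understate those of low genes. Pairs were compared by an exact sign-flip permutation test. Variation between libraries was tested with edgeR's intercept-only fit with trended dispersion (residual deviance against chi-square, genes with 10 counts or more in a library, Benjamini-Hochberg adjusted). On simulated data without change its unadjusted p was slightly too small. Alternatives used DESeq2 1.42.0. Processed pseudogenes were matched with BLAST 2.17.0 (90% identity over 50% of the coding sequence). The limit of 3 counts covers counting error only, because amplified reads without molecular identifiers are not independent.

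The members, lists and pairs were chosen with earlier results of these data known. Values in each library are given for the 3 members highest per kilobase in each role, members not detected, paired genes, sensors, factors and outputs, and the 2 highest genes of each other list. Protein sequences were not used here. Python 3.11.15, numpy 2.4.6, scipy 1.17.1, pandas 2.3.3 and matplotlib 3.10.9 were used.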

Additional observations from a re-analysis of the deposited data

How the results depend on the processing

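The count of detected genes stayed within 38 to 41 of 44 at thresholds of 0.5 and 5 CPM, with total counts or DESeq2 size factors in place of TMM, and without each library in turn. The median level of the 44 genes was 23.1 CPM per kilobase of exon and 35.5 by principal transcript length, an alternative chosen after seeing the data, which shortens most genes. Without each library it was 23.7 to 24.2. Of the 42 genes fitted, 0 were called as varying between libraries, and 1 (Hspa5) when all genes with at least 1 count were fitted. The cause was not tested. Among pairs, Derl1 minus Derl2 turned from 0.50 to -0.75 with CPM not divided by length and to -0.54 by principal transcript length, since the exon set of Derl2 is the longer. The other 11 pairs kept their sign under the alternatives run, though Sec23a minus Sec23b fell to 0.66 and Hspa5 minus Hsp90b1 to 0.62 by principal transcript length, and with CPM not divided by length Sec61b minus Sec61a1 was 2.10 and Ppp1r15a minus Ppp1r15b 1.62. The sizes for Ern1 depended on the scale: Ern1 minus Eif2ak3 ran from -6.71 with CPM not divided by length to -3.39 at a pseudocount of 1, and Atf6 minus Ern1 from 6.86 to 2.98 under the same settings. The median SD of the detected members was 0.25 to 0.26 under other pseudocounts and size factors. No pairing of samples between conditions was possible because there is 1 group. Groups of 3 were not searched for outlying libraries. Ern1 and Chac1 had 5 and 0 counts in all, too few to compare libraries.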
